A study of Mus musculus with 8 samples.

Results

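The 3 arrays of wild-type Sca1+Lin- bone marrow cells are described on their own, out of 8 arrays in the series. They were chosen by their labelled genotype and are called arrays 1, 2 and 3 after their replicate numbers. The cells were sorted from mouse bone marrow as positive for the surface protein Sca1 and negative for lineage markers (Lin-), and their RNA was hybridised to Affymetrix arrays. Before hybridisation all samples were amplified by in vitro transcription with T7 polymerase, from 5 µg of RNA carried into cDNA. The wild-type mice carried no transgene by their label. The other 5 arrays come from Sca1-MALT1 mice, with a transgene that by its name joins the Sca1 promoter to MALT1, and they enter only where the spread of single genes is set beside the wild-type spread. The labels give no strain, age, sex, antibody mix or array date, and they do not say whether each array holds 1 animal or a pool. Ly6a, which encodes Sca1, was not analysed here, so the positive gate was not checked on its own gene.

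Bone marrow cells that lack lineage markers include the haematopoietic stem cell, which renews itself, and the progenitors that pass through multipotent and committed stages to lymphoid, myeloid and erythroid cells. Sca1 together with the receptor Kit marks the stem and multipotent cells. Without a gate on Kit, the Sca1+Lin- fraction can also hold lymphoid progenitors, innate lymphoid cells, endothelial cells and some stromal cells. Sca1 is also found on many mature lymphocytes.

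The unit throughout is the log2 signal of the deposited table, in which a step of 1 is a 2-fold difference. The median gene of 18193 read 7.45, 7.47 and 7.41 on arrays 1, 2 and 3. A gene's position is its percentile within an array, which is the percent of the 18193 genes that read at or below it. Probe sets of separate genes bind with different strength, so a percentile is a position on the array and not an abundance. As a reference, 24 genes of liver, muscle, brain, pancreas, kidney, lung, skin and eye had a median percentile of 31.2 ± 1.17 (SD, n = 3 arrays), and 22 of the 24 read below the median gene. Their exceptions were Mbp, a myelin gene that is also transcribed in blood cells, with a mean percentile of 90.5, and Cela1, a pancreatic protease, at 7.71, 8.09 and 7.61. None of the 24 differed by more than 1 log2 unit between any 2 arrays, beside 10.6% of all genes that did. That share was 14.2% among genes above the median gene, so it was under 10.6% among dim genes like most of these.

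The arrays correlated at r = 0.981 (1 and 2), 0.973 (1 and 3) and 0.981 (2 and 3) across genes, which are not independent replicates. The 3′ minus 5′ signal of the Gapdh control probe sets, a measure of RNA integrity, lay between 2.70 and 2.92, and that of beta-actin fell in the range 1.45 to 2.14, with array 1 at the top for actin and array 3 at the top for Gapdh. Eif2s3y, a Y chromosome translation factor gene, read 10.65, 11.04 and 11.43. Kdm5d, a Y chromosome histone demethylase gene, read 8.63, 8.65 and 8.51, and Uty, also on the Y chromosome, read 7.34, 7.29 and 7.24. Xist, the RNA of the inactive X chromosome, read 6.21, 6.45 and 6.46, below the median gene on all 3 arrays.

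The brightest genes were those of the translation machinery, followed by neutrophil granule genes and the IgM heavy chain. Eef1a1, which brings tRNA to the ribosome, led with 14.87, 14.98 and 14.95. Of the 25 genes with the highest mean, 15 more encoded ribosomal proteins, led by Rps7 at 14.82, 14.84 and 14.81 and Rps4x at 14.85, 14.84 and 14.77. The level of these 2 genes was close to the same on all arrays. Among the remaining places were Tpt1 (translationally controlled tumour protein), Tmsb4x (an actin-binding thymosin), Actb (beta-actin), Pabpc1 (poly(A)-binding protein) and Shisa5. The other 4 belonged to mature or maturing blood cells. S100a8, a subunit of neutrophil calprotectin, read 14.57, 14.59 and 15.07. Lyz1, a lysozyme gene, read 14.44, 14.57 and 15.17, although its probe set may also bind the transcript of its close copy Lyz2. Ngp, a neutrophil granule protein gene, read 14.01, 14.37 and 15.17, which made it the gene at rank 52 on array 1 and at rank 2 on array 3. Ighm, the heavy chain of IgM, read 14.14, 14.90 and 14.72.

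**Figure D1:**
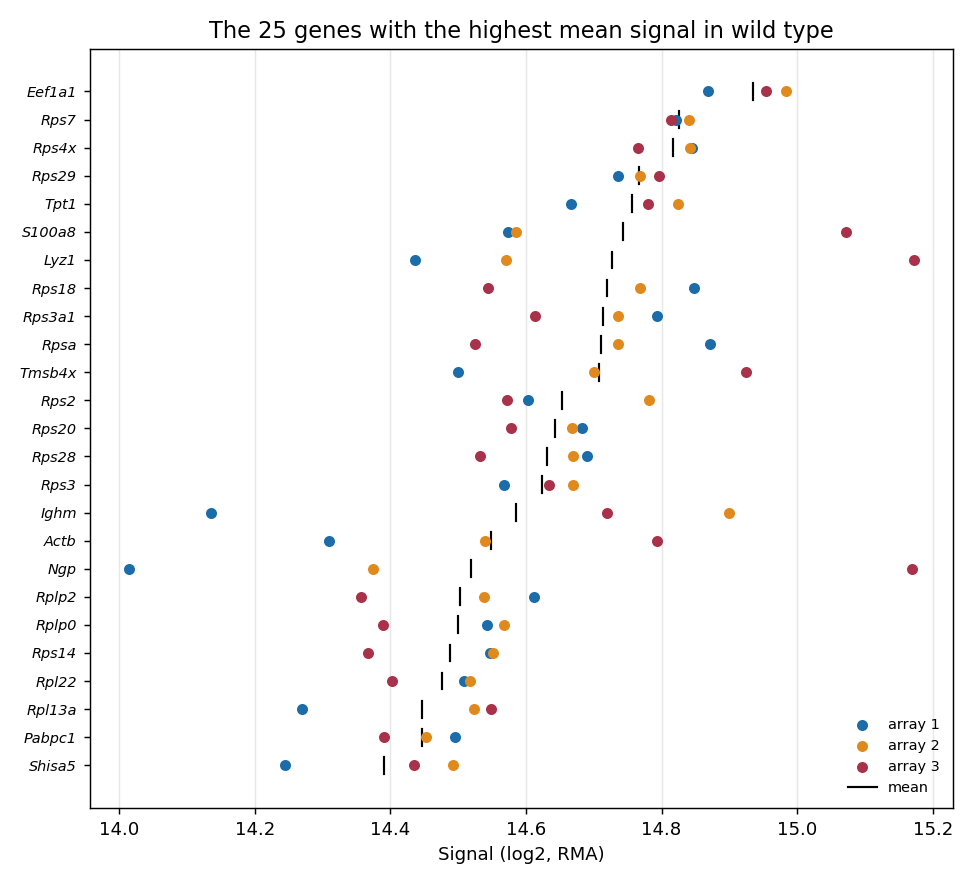
Log2 signal (horizontal axis) of the 25 genes with the highest mean over the 3 wild-type arrays, 1 row per gene, with 1 point per array and a black bar at the mean. The ribosomal protein genes lie close together on all arrays, while Lyz1 and Ngp reach 15.17 on array 3 and stay under 14.6 on the other two.

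The brightest 1% of each array held 182 genes, of which 134 were in that class on all 3 arrays and 238 on at least 1. Of the 134, 33 were ribosomal protein genes, out of 49 such genes measured. Blood cell genes were among those that reached the class on some arrays only. Dntt, the terminal transferase that adds bases at antigen receptor joints, read 13.56, 11.53 and 11.38, and was in the class on array 1 only. Fpr2, a formyl peptide receptor of neutrophils, read 11.35, 11.21 and 13.50, and was in it on array 3 only. Il7r, the interleukin-7 receptor of lymphoid progenitors, read 12.43, 13.60 and 13.74, low on array 1. These 3 were chosen as examples, and Fpr2 after its values were seen.

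The 5 marker genes split into 3 stem and progenitor genes, with mean percentiles of 80.9 to 86.3, and 2 genes of mature cells near the top of the array. Kit, the receptor for stem cell factor, read 11.06, 10.03 and 9.24, with percentiles of 91.7, 81.4 and 72.0. Flt3, the cytokine receptor of multipotent and lymphoid-primed progenitors, read 11.37, 10.12 and 8.80, with percentiles of 93.6, 82.5 and 66.5. Both stood highest on array 1 and lowest on array 3. A second, dimmer Kit probe set read 6.41, 6.70 and 5.70, and was also lowest on array 3. Procr, the protein C receptor that marks stem cells, read 10.59, 10.69 and 10.11 and had a mean percentile of 86.3. Ms4a1, which encodes the B cell antigen CD20, read 12.31, 12.97 and 12.36, at percentiles of 97.4 to 98.8, and its second probe set read 11.09, 11.58 and 11.38. S100a8 stood at a percentile of 99.9 on each array. The markers of stem and progenitor cells were thus read together with those of B cells and neutrophils. In bulk RNA, fewer cells of a type and less RNA per cell cannot be told apart, so these values do not give the share of any cell type.

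**Figure D2:**
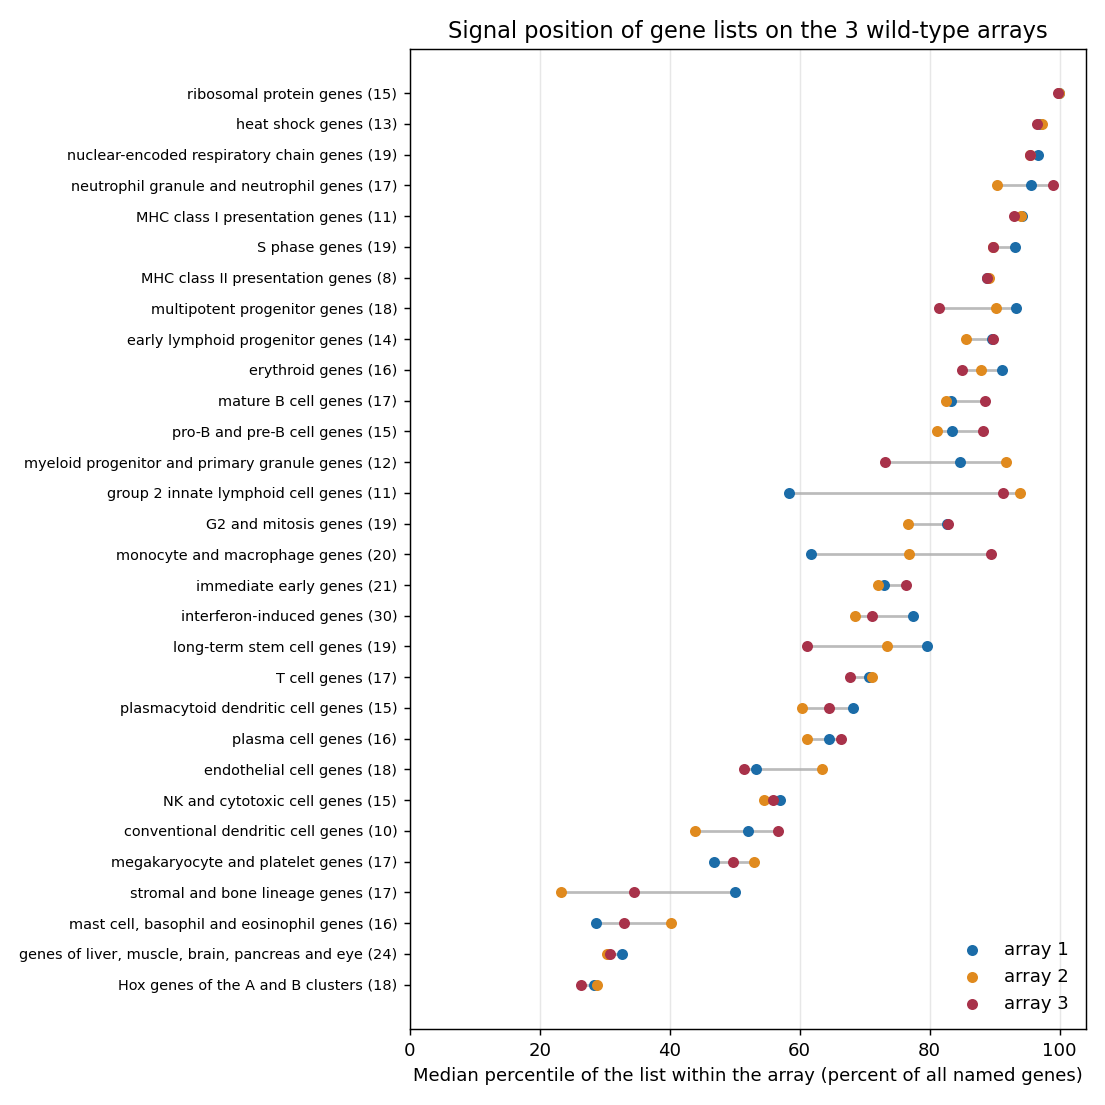
Median within-array percentile (horizontal axis, percent of all named genes) of each gene list, 1 row per list with the number of measured genes in brackets and 1 point per wild-type array. Ribosomal protein genes sit at the top and genes of other tissues near 31.2; the group 2 innate lymphoid, monocyte and stromal lists spread furthest between arrays.

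Antigens often included in lineage antibody mixes read over a wide range. Ptprc, the pan-leukocyte antigen CD45 whose B cell form such mixes commonly include, read 13.34, 13.67 and 14.07. This probe set does not separate the forms, and the mix used here is not in the labels. The T cell receptor subunit Cd3e read 9.16, 9.20 and 8.89. Below it, Cd5 read 8.19, 8.38 and 7.46, Cd4 read 7.57, 7.59 and 7.64, and Cd8a read 6.84, 6.84 and 6.76. Of these T cell antigens Cd5 had the widest range, with array 3 the lowest, and the myeloid antigens had wider ones. Adgre1, the macrophage antigen F4/80, read 7.22, 8.07 and 8.78. Itgam, the myeloid integrin CD11b, read 5.15, 5.40 and 8.60, so array 3 stood apart by over 3 log2 units while arrays 1 and 2 lay below the median gene. The last of the 8 antigens measured is Il7r, whose values are given above.

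Stem cell genes stood above the median gene in 15 of 19 cases, with a median list percentile of 79.7, 73.4 and 61.2. Txnip, a regulator of redox state that is high in quiescent cells, read 13.07, 13.81 and 13.79 and was the brightest of them. Hlf, a transcription factor of stem cells, read 10.91, 11.37 and 10.31. Pdzk1ip1, a small membrane protein, read 11.21, 10.82 and 10.19. Meis1 read 10.77, 10.20 and 9.51 and Mecom read 10.32, 9.89 and 9.48, both transcription factors needed by stem cells. These 3 were highest on array 1 and lowest on array 3, and Meis1 and Mecom were named after their values were seen. At the low end were Tek, the angiopoietin receptor, at 6.36, 6.49 and 5.43, and Hoxb5 at 5.75, 5.83 and 5.14. In 18 of 19 genes array 3 was the lowest, where 37.1% of all genes were lowest on that array; the exception was Txnip.

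Genes of multipotent progenitors stood higher, with a list median at percentile 93.3, 90.2 and 81.5 and all 18 above the median gene. Myb, a transcription factor of proliferating progenitors, read 12.96, 12.68 and 12.63, Lmo2, a bridging subunit of blood transcription factor complexes, 12.89, 12.77 and 12.33, and Ikzf1, the lymphoid regulator Ikaros, 12.02, 12.09 and 12.32. These 3 were close to level between arrays. Others were not. Cd34, the sialomucin of progenitors and endothelium, read 12.00, 11.00 and 8.90. Mn1, a transcriptional co-activator, read 9.09, 8.41 and 6.79, and Hoxa9, a homeobox gene of progenitors, 12.78, 11.97 and 11.14. Of the 18 genes, 15 were highest on array 1, where 32.9% of all genes were highest, and 15 were lowest on array 3. The exceptions to highest on array 1 were Ikzf1 and Spi1, which led on array 3, and Gata3, which led on array 2. Hoxa9 was the one homeobox gene of 18 measured Hox genes at a percentile above 90 (95.6), and the Hox list had a median percentile of 27.8, beside 31.2 for the other-tissue genes. With the mean of all probe sets of a gene these 2 values were 31.6 and 27.5, so the order of the lists turned.

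Early lymphoid and B lineage genes were bright on all arrays but differed in which array led. The early lymphoid list had median percentiles of 89.7, 85.5 and 89.7. Rag1, a subunit of the recombinase that joins antigen receptor segments, read 11.13, 9.91 and 11.76, and Rag2, the other subunit, read 8.44, 6.96 and 7.92. Both were lowest on array 2. Notch1, a receptor needed for T cell fate, read 11.52, 11.00 and 11.29. Of the pro-B and pre-B list, Cd24a (a surface sialoglycoprotein) read 14.12, 14.11 and 14.39 and Cd79b (a signalling subunit of the B cell receptor) read 12.10, 12.42 and 12.53. The surrogate light chain genes followed the order of Rag1, with Vpreb1 at 11.58, 10.59 and 11.82 and Igll1 at 10.87, 10.28 and 11.35. Rag1, Vpreb1 and Igll1 were named after their values were seen. Sox4 at 12.54, 11.88 and 11.70 and Arpp21 at 8.56, 7.04 and 6.42 had another order. Pax5, the B cell commitment factor, was the list's lowest gene at 6.91, 6.38 and 7.51. None of the 15 pro-B and pre-B genes was highest on array 2, where 34.4% of all genes were highest, and 9 were lowest there, beside 25% of all genes.

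Mature B cell genes had a median percentile of 83.3, 82.6 and 88.5. Behind Ighm and Ms4a1 came Pou2af1, a B cell co-activator, at 10.91, 11.18 and 11.77, and Fcmr, the IgM receptor, at 11.22, 11.80 and 10.13. The lowest were Fcer2a, the low-affinity IgE receptor CD23 of follicular B cells, at 5.76, 5.55 and 7.94, and Cr2, the complement receptor CD21, at 6.33, 5.77 and 6.30. Thus CD20 and IgM transcripts read far above the median gene while CD21 read below it on all arrays, and CD23 on 2 of them. In the plasma cell list Xbp1, the transcription factor of secretory cells, read 12.60, 12.45 and 12.47. Jchain, which joins secreted IgM and IgA, read 11.18, 12.48 and 12.16, and Tnfrsf17, the plasma cell receptor BCMA, read 4.93, 5.40 and 5.31.

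T and natural killer cell lists lay lower than the mature B cell list, and their medians varied little between arrays. The plasma cell list lay between these 2 lists, at median percentiles of 64.5, 61.2 and 66.4. The median percentiles were 70.7, 71.1 and 67.7 for 17 T cell genes and 56.9, 54.4 and 55.9 for 15 natural killer genes. In each list 3 genes had a range over 1 (17.6% and 20%), beside 10.6% of all genes. Erythroid genes lay high, at median percentiles of 91.1, 87.9 and 85.0. Car2, carbonic anhydrase of red cells, read 13.76, 13.76 and 13.22, Slc4a1, the anion exchanger of the red cell membrane, read 13.23, 13.19 and 12.98, and Alas2, the first enzyme of haem synthesis in red cells, read 12.13, 12.41 and 12.53. None of 16 erythroid genes had a range over 1 log2 unit, beside 10.6% of all genes. Hba-a1, alpha globin, was the exception in level, at 3.86, 4.20 and 4.32, the range of genes of other tissues. It had 1 probe set here, and probe sets with several gene symbols were not used. The value therefore does not settle the level of alpha globin RNA, and the beta globin gene Hbb-b1 was not analysed here. Megakaryocyte genes had a list median at percentile 46.8, 53.0 and 49.7, with Nfe2, a transcription factor of platelet formation, at 11.73, 11.34 and 11.27, the highest.

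Most genes read alike on the 3 arrays. The median gene had an SD of 0.20 and a range, the highest minus the lowest array, of 0.38, and 11739 genes (64.5%) stayed within 0.5 log2 unit. In 1935 genes (10.6%) the range was over 1, in 342 over 2 and in 70 over 3. Without array 1 the count over 1 was 788, and without array 3 it was 784, so arrays 1 and 3 together carried many of these differences: they were apart by over 1 in 1367 genes (7.51%). Of the 1935, 931 had 1 array apart from both others by over 1 log2 unit. Array 3 was the higher one in 288 genes (1.58%) and the lower in 147 (0.808%). Array 1 was the higher in 162 (0.89%) and the lower in 232 (1.28%), and array 2 in 102 (0.561%) and 73 (0.401%). No test was made, since the 3 arrays form 1 group, and n = 3 limits the precision of each spread.

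Neutrophil genes were highest on array 3 without exception, in 17 of 17 measured, where 32.7% of all genes were highest on that array. In 13 of the 17, array 3 was apart from both others by over 1 log2 unit, beside 1.58% of all genes. The median member read 1.57 above the mean of arrays 1 and 2, while the median of all genes was -0.02. The promoters of 3 strongly read granule protein genes are printed to show the sequence just before their start sites. They were chosen from the promoters that held a motif match. Each is the 250 bases upstream in RefSeq on GRCm38.p6, 5′ to 3′ on the gene's strand, with matches to TTGCNNAA, a core of the C/EBP motif, in capitals on either strand.

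Ngp, chr9:110419558-110419807 (+), a granule protein of the cystatin and cathelicidin family: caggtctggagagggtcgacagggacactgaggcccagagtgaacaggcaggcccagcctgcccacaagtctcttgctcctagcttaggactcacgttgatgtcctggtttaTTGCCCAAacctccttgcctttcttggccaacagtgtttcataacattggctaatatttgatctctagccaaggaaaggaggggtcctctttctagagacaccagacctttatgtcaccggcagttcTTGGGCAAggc
Ltf, chr9:111019042-111019291 (+), lactoferrin, an iron-binding protein of secondary granules: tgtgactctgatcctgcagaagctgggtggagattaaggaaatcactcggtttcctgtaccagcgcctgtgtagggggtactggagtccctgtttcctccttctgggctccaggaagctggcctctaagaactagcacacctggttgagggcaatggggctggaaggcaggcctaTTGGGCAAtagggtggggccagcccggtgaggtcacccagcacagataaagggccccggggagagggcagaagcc
Lcn2, chr2:32387740-32387989 (-), lipocalin 2, which binds bacterial siderophores: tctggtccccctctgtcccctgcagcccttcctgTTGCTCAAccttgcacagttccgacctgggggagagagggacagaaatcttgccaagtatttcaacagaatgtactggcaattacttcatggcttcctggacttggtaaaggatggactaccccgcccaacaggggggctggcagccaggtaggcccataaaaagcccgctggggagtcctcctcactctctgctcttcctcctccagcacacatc

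C/EBP factors are transcription factors of granulocyte development. RefSeq promoters were matched for 15 of the 17 genes, and 6 of the 15 (40%) held a match, in Ngp, S100a9, Anxa1, Ltf, Lcn2 and Mmp8. Among 32851 mouse promoters of the same length, 3142 (9.56%) held one. The motif was chosen after the values were seen, a match is a description of letters and not a binding site, and no test was made.

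The granule genes themselves ran from moderate to large gaps. Ltf read 12.96, 13.19 and 14.65, Lcn2 read 12.71, 12.41 and 14.10, and Camp, the antimicrobial cathelicidin, read 13.66, 13.80 and 14.93. S100a9, the partner of S100a8, read 14.12, 13.93 and 14.82. Array 3 was the highest in each, by less than 2 log2 units. Dimmer neutrophil genes had wider gaps. Mmp8, neutrophil collagenase, read 10.25, 10.52 and 12.71, Mmp9, gelatinase of tertiary granules, read 10.87, 10.89 and 13.09, and Cd177, a neutrophil surface protein, read 10.33, 10.39 and 12.78. Cxcr2, the chemokine receptor of mature neutrophils, read 8.61, 8.66 and 11.05. Stfa3, a cysteine protease inhibitor, was the lowest at 5.20, 4.40 and 7.00. In Mmp8, Mmp9, Cd177 and Cxcr2 arrays 1 and 2 lay close together and array 3 stood alone. Mmp8, Mmp9, Cd177, Ltf and Lcn2 were named after their values were seen. Outside the list, Olfm4 (olfactomedin 4 of neutrophil granules) read 8.70, 8.08 and 11.55, and Chil1, a chitinase-like protein of granules, 9.74, 9.88 and 12.39.

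Monocyte and macrophage genes moved the same way less completely. Of 20 measured, 15 were highest on array 3, beside 32.7% of all genes, and 8 stood apart there, beside 1.58%, with list medians at percentile 61.7, 76.8 and 89.4. Lyz2, lysozyme M, read 13.18, 13.40 and 14.56, Ctss, cathepsin S, read 12.42, 12.96 and 13.29, and Lgals3, galectin-3, read 11.70, 11.34 and 13.13. Cx3cr1, the fractalkine receptor of monocytes, read 6.09, 6.68 and 8.49. Fcgr1, the high-affinity IgG receptor CD64, was the lowest at 6.46, 6.61 and 6.58 and did not follow. The 5 genes highest on array 2 instead included the complement genes C1qa at 7.31, 8.13 and 7.07, C1qb at 8.32, 9.42 and 8.57 and C1qc at 6.94, 8.23 and 7.56, which are made by tissue macrophages. The other 2 were Vcam1, at 9.89, 10.53 and 9.67, and Fcgr1. These genes were named after their values were seen.

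Genes of primary granules, which are made in early myeloid progenitors, did not follow the neutrophil genes. Mpo, myeloperoxidase, read 12.28, 12.97 and 9.34, so that array 3 was the lowest by 2.94 log2 units or more. Elane, neutrophil elastase, read 6.02, 9.73 and 6.44, and Ctsg, cathepsin G, read 8.06, 11.57 and 7.97, both high on array 2 alone. Prtn3, proteinase 3, read 10.67, 11.36 and 9.04, with the same order as Mpo, and Ms4a3, of committed granulocyte and monocyte progenitors, read 7.07, 9.75 and 7.95. Later genes of the same list ran the other way. Hp, haptoglobin, read 12.03, 12.14 and 13.51, and Csf3r, the G-CSF receptor, read 10.47, 9.90 and 11.57. Cebpa, the C/EBP factor of myeloid progenitors, lay below the median gene at 6.93, 6.57 and 6.75. On array 3 Mpo and Prtn3 were therefore low while Hp and Csf3r were high, and Elane, Ctsg and Ms4a3 were highest on array 2. Prtn3, Ms4a3 and Csf3r were named after their values were seen.

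**Figure D3:**
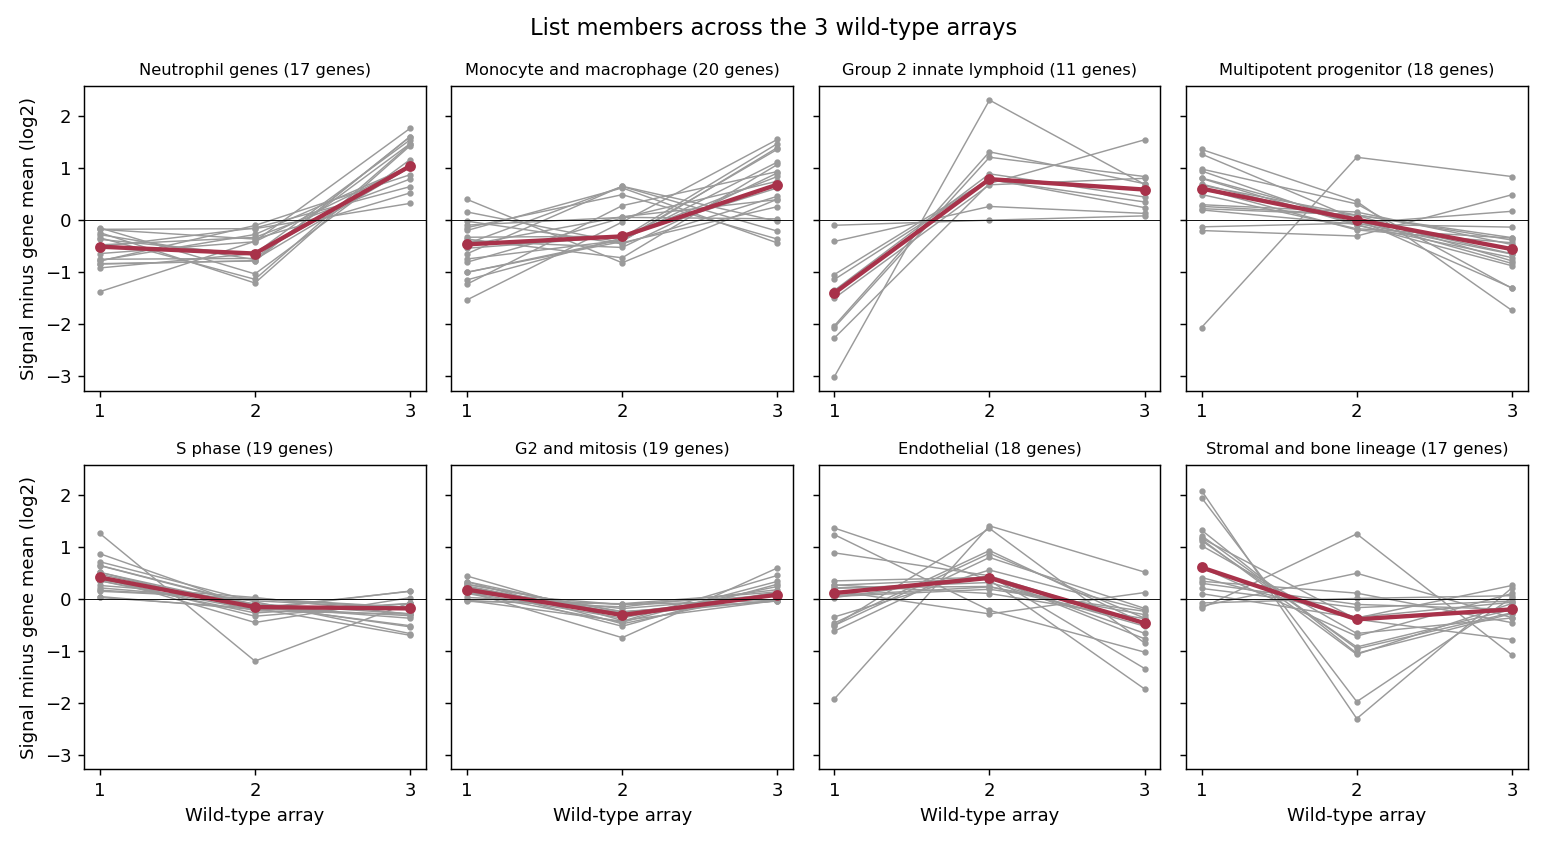
Signal minus the gene's own mean (log2, vertical axis) on wild-type arrays 1, 2 and 3 for 8 gene lists. Grey lines join the 3 values of 1 gene, the red line joins the medians, and the arrays have no order. All 17 neutrophil genes peak on array 3, all 11 group 2 innate lymphoid genes are lowest on array 1, and all 19 G2 and mitosis genes are lowest on array 2.

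Genes of group 2 innate lymphoid cells, lymphocytes without antigen receptors that make type 2 cytokines, were lowest on array 1 in 11 of 11 measured, where 37.9% of all genes were lowest on that array. In 9 of the 11, array 1 was apart from both others by over 1 log2 unit, beside 1.28% of all genes, and the median member read -2.10 against the mean of arrays 2 and 3. Gata3, the transcription factor that sets type 2 identity, read 8.17, 11.45 and 11.08. Rora, a nuclear receptor needed for these cells, read 8.55, 10.79 and 10.35. Among receptors, Il17rb, which binds interleukin-25, read 8.93, 12.28 and 11.67. The interleukin-2 receptor gene Il2ra read 7.49, 9.67 and 9.79, and the inhibitory lectin receptor Klrg1 read 7.11, 10.09 and 10.93. Arg1, the arginase of these cells and of some macrophages, read 7.35, 12.67 and 11.05, a gap of 3.70 between array 1 and the nearer array.

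Array 1 thus lay near the median gene for Gata3, Arg1, Il2ra and Klrg1, where arrays 2 and 3 lay well above it. Icos, a costimulatory receptor, read 10.87, 13.07 and 12.86, Ccr9, a gut-homing receptor, read 10.95, 12.87 and 12.45, and Bcl11b, a T and innate lymphoid factor, read 10.00, 11.83 and 11.29. The cytokine genes were low on all arrays: Il5 read 5.22, 5.32 and 5.40 and Il13 read 5.23, 5.90 and 5.77. Il1rl1 and Areg were not analysed here. Bcl11b and Icos are also in the T cell list, where Cd3g read 9.94, 10.26 and 10.29 and Cd3e was level. T cell genes were also lowest on array 1 in 10 of 17, beside 37.9% of all genes. Their median member read -0.32 against the mean of arrays 2 and 3. Of 17 T cell genes 3 had a range over 1, beside 10.6% of all genes: Bcl11b, Icos and Thy1, a surface glycoprotein that read 10.32, 11.72 and 10.60. Gata3, Rora, Il2ra and Cd3g were named after their values were seen. Ranges past 1 were also large in genes outside the list that were low on array 1 alone, such as Rnf128, an E3 ubiquitin ligase of T cell anergy, at 8.71, 11.95 and 12.65, Cntnap2 at 6.30, 10.04 and 10.25, and Ptpn13 at 6.68, 9.95 and 10.00.

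Replication genes were highest on array 1 in 17 of 19, beside 32.9% of all genes, with a median of 0.62 above the mean of the other arrays. The promoter of Mcm7, a subunit of the helicase that opens DNA at origins, is printed. It was chosen from the replication gene promoters that held a motif match, as that of the brighter gene. Its capitals mark a match to TTTCCCGC, a core of the E2F motif, on either strand.

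Mcm7, chr5:138171884-138172133 (-): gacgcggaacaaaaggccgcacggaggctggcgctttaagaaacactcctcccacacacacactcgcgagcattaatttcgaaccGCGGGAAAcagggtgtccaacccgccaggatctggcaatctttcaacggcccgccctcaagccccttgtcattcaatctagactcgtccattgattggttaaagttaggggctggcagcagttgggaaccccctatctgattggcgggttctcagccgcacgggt

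E2F factors drive genes of DNA replication. Of 18 promoters matched for 16 of the 19 genes, 2 (11.1%) held this match, beside 294 of 32851 mouse promoters (0.895%). The motif was also chosen after the values were seen. The group 2 innate lymphoid genes were searched in the same way for AGATAA, letters of the GATA motif. RefSeq promoters were matched for 8 of the 11 genes, and 1 of the 8 held a match, that of Il13. Among all mouse promoters 3281 of 32851 (9.99%) held one, so this list did not stand out. Mcm7 read 13.46, 12.72 and 12.65, and Pcna, the sliding clamp of DNA polymerase, read 13.33, 13.19 and 13.02. The fork genes Mcm5 and Mcm4 read 12.75, 12.12 and 11.95, and 12.60, 12.03 and 12.10. Mcm2 had the widest gap of the helicase genes, at 12.32, 11.28 and 10.75. Rrm2 and Slbp were the 2 genes not highest on array 1, at 12.23, 11.98 and 12.33, and 11.28, 11.07 and 11.39. Tyms, thymidylate synthase, was the lowest at 7.05, 4.60 and 5.72.

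Genes of G2 and mitosis had another order, lowest on array 2 in 19 of 19, beside 25% of all genes. Mki67, the proliferation antigen Ki-67, read 12.69, 12.14 and 12.92, Cdc20, an activator of the anaphase-promoting complex, read 12.38, 11.74 and 12.02, and Top2a, a topoisomerase of mitotic chromosomes, read 12.05, 11.24 and 11.86. The gaps were small, with a median of -0.46 on array 2 against the mean of the others. A range over 1 was held by 1 of the 19, beside 10.6% of all genes: Cenpf, a kinetochore protein, at 10.10, 9.21 and 10.55. Array 1 was the highest in 11 of the 19 mitosis genes and array 3 in 8, beside 32.9% and 32.7% of all genes. In the replication list these counts were 17 and 2 of 19. Cenpf, Mcm2, Rrm2 and Slbp were named after their values were seen.

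Endothelial genes were highest on array 2 in 13 of 18, beside 34.4% of all genes. Stab2, the hyaluronan receptor of sinusoidal endothelium, read 8.86, 12.19 and 11.30. Cdh5, the endothelial cadherin, read 6.55, 8.42 and 6.21, Plvap, of fenestrated endothelium, 8.07, 9.46 and 8.21, and Cldn5, a tight junction protein, 8.04, 9.46 and 8.48. The panendothelial gene Pecam1 was low on all arrays at 6.15, 6.29 and 5.87. Array 2 was apart in 3 of the 18: Cdh5, Plvap and Ptprb, at 7.23, 8.62 and 7.22, beside 0.561% of all genes. Of the list, 6 genes, Cd34, Erg, Esam, Robo4, Tek and Vwf, are also stem or progenitor genes. Cdh5, Plvap, Ptprb and Cldn5 were named after their values were seen.

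Stromal genes were highest on array 1 in 13 of 17, beside 32.9% of all genes, and array 1 was apart in 8, beside 0.89% of all genes. Cxcl12, the chemokine that holds stem cells in the marrow, read 10.15, 6.22 and 8.22. A second Cxcl12 probe set read 9.84, 6.14 and 8.38, in the same order, and the dimmest one read 5.47, 5.42 and 5.53. Kitl, the ligand of Kit, read 6.76, 4.71 and 5.43, and Adipoq, adiponectin of marrow adipocytes and their precursors, read 7.42, 5.20 and 6.18. Ibsp, bone sialoprotein, read 7.61, 3.23 and 5.74. Kitl, Adipoq and Ibsp sat near or below the median gene on every array. Sparc, a matrix protein also made by endothelium, went the other way at 8.68, 10.10 and 7.77. Col1a1, type I collagen, was near the bottom of the array at 5.22, 5.31 and 5.36. Only 6 stromal genes lay above the median gene, and 4 of these 6 were highest on array 1. Kitl, Adipoq and Ibsp were named after their values were seen.

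Interferon-induced genes had a median percentile of 77.4, 68.5 and 71.1, and 4 of 30 had a range over 1, a share of 13.3% beside 10.6% of all genes. Rsad2, the antiviral protein viperin, read 13.23, 13.25 and 12.86. Immediate-early genes, which are induced within minutes of handling or a stimulus, were highest on array 3 in 14 of 21, beside 32.7% of all genes, and 9 of the 21 had a range over 1, beside 10.6%. Fos read 12.13, 10.61 and 12.28, Jund 11.38, 11.50 and 11.63, and Ier2 11.27, 11.35 and 11.91. The widest ranges were those of Klf4 at 8.25, 9.06 and 10.87, Egr3 at 7.43, 9.28 and 6.71, and Myc at 11.02, 10.29 and 8.73, all transcription factors. Each of these was led by a different array, and all 3 were named after their values were seen. Klf4 is also in the monocyte and macrophage list. Class I antigen presentation genes were lowest on array 1 in 8 of 11, beside 37.9% of all genes, with H2-K1 at 13.42, 14.42 and 14.09 and H2-D1 at 12.92, 14.12 and 13.89. Class II genes were highest on array 2 in 7 of 8, beside 34.4% of all genes, with H2-Aa at 12.43, 12.77 and 12.48. The parts of RNA quality, immediate-early induction and cell mixture in the differences between arrays were not tested.

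The 25 genes with the widest range, among 9096 genes above the median gene, of which 1294 (14.2%) had a range over 1, were of several kinds. Innate lymphoid and myeloid genes described above took 4 places, Arg1, Klrg1, Mpo and Ctsg. Mndal, a DNA-binding protein of the interferon-inducible Ifi200 family, had the widest range, at 11.85, 12.12 and 4.92, a gap of 7.20. Its second probe set read 12.05, 12.35 and 3.49. Its family member Ifi202b read 8.38, 4.37 and 9.98, so array 3 was low for Mndal and array 2 was low for Ifi202b. The 2 genes lie on chromosome 1 with 2 protein-coding genes between them in GRCm38.p6.

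Trim genes on chromosome 7, members of a family of antiviral ubiquitin ligases, took 3 further places. Trim12a read 10.13, 4.15 and 9.37, Trim34a read 11.34, 7.05 and 10.04, and Trim30d read 9.10, 5.49 and 8.37. Their neighbour Trim5, outside the 25 and named after its values were seen, read 8.51, 4.47 and 7.82. All 4 were low on array 2 alone. Trim12c, a close copy of Trim12a that was also named after its values were seen, was level at 10.88, 10.94 and 10.95. A second Trim30d probe set had the same order at 7.31, 5.95 and 7.05. A dimmer Trim34a probe set had the opposite order, at 5.96, 7.51 and 7.20, and that of Trim12a had the same order as the brighter one over a smaller range, at 6.54, 5.79 and 5.96. Near-identical copies can share probes, so which copy was read is uncertain.

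The same genes were high on some Sca1-MALT1 arrays and low on others. Trim12a read 8.93, 9.78, 3.82, 3.92 and 9.43 on the 5 arrays in replicate order. Trim34a read 9.83, 10.96, 6.61, 6.61 and 9.86, low on the same 2 arrays. Mndal read 10.94, 6.21, 11.75, 11.56 and 6.13, low on 2 other arrays, and Ifi202b read 8.53, 9.57, 8.98, 4.42 and 9.53, low on 1. These genes therefore took a high or a low level in each genotype, with wild-type array 2 at the low level for the Trim genes and Ifi202b and wild-type array 3 at the low level for Mndal. The strain of the mice is not in the labels, and its part in these levels was not tested.

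**Figure D4:**
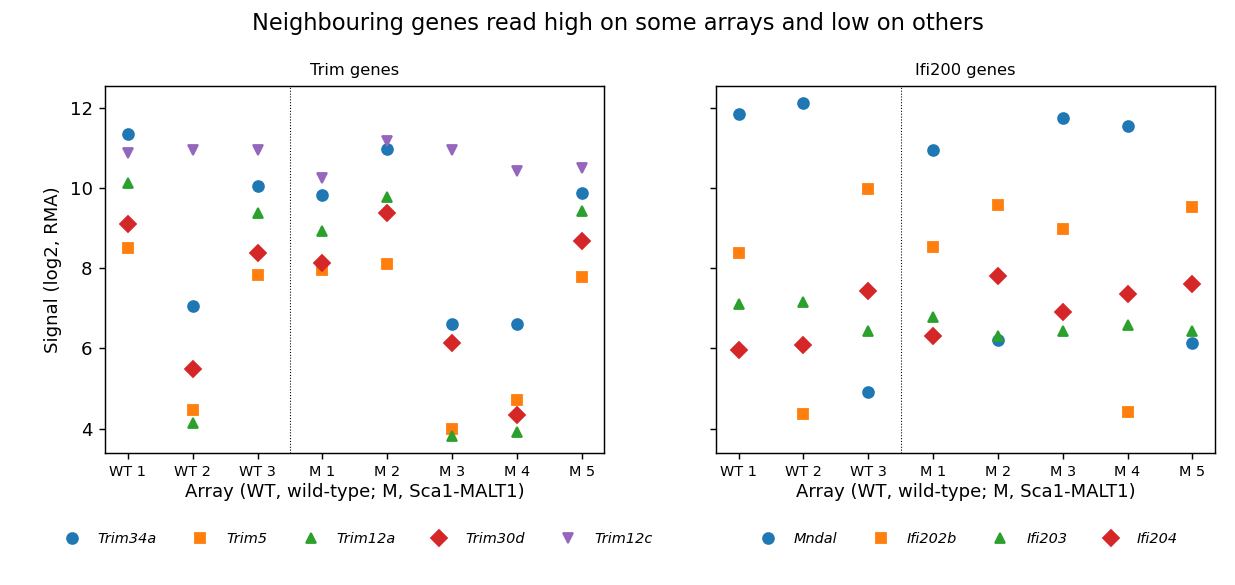
Log2 signal (vertical axis) of Trim genes of chromosome 7 (left) and Ifi200 genes of chromosome 1 (right) on the 3 wild-type (WT) and 5 Sca1-MALT1 (M) arrays, 1 symbol per gene. Trim12a, Trim34a, Trim5 and Trim30d drop together on WT 2, M 3 and M 4, Trim12c stays level, and Mndal drops on WT 3, M 2 and M 5.

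Further genes of the 25 had other roles. Igha, the heavy chain of IgA, read 12.45, 7.17 and 8.42, and its other 2 probe sets read 11.77, 7.22 and 8.58, and 10.97, 7.39 and 7.57, so array 1 was high in each. Ighg3, of IgG3, was instead high on array 2, at 7.65, 9.95 and 7.27. Hmga2, a chromatin protein that is high in fetal stem cells, read 10.53, 8.91 and 6.94, and its other 3 probe sets were also highest on array 1 and lowest on array 3. Ddit4, a stress-induced inhibitor of mTOR, read 8.77, 12.27 and 11.01, and Pik3ap1, an adaptor of B and myeloid cells, read 8.68, 10.66 and 12.24. Arg2, the mitochondrial arginase, read 7.39, 5.77 and 9.25, and did not share the order of Arg1. Ang, angiogenin, read 5.25, 9.69 and 8.45. Slc15a2, a peptide transporter, read 6.15, 10.45 and 6.39, yet its other 2 probe sets had ranges of 0.19 and 0.21.

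The places not yet named were held by Mir1931 (a probe set annotated to that microRNA locus, at 10.23, 7.92 and 4.93), 1700113H08Rik, Mfsd13a, Cntnap2, Rnf128, Cxcl12, 1810046K07Rik, Sh2d5 and Mid1. The last gene inside the 25 was Arg2 with a range of 3.48, and the first outside was Olfm4 with 3.47. Of the 25 genes, 17 had another probe set, 26 in all. Of these 26, 16 also had a range over 1, and 14 of the 16 had the same highest and lowest array; 20 of the 26 read below the median gene. For the 1294 genes with a range over 1, the other probe sets were split at the level of the median gene. Those above it shared the sign of the difference in 538 of 575 (93.6%), and in 300 (52.2%) it was also over 1 log2 unit. The dimmer ones shared the sign in 674 of 874 (77.1%).

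**Figure D5:**
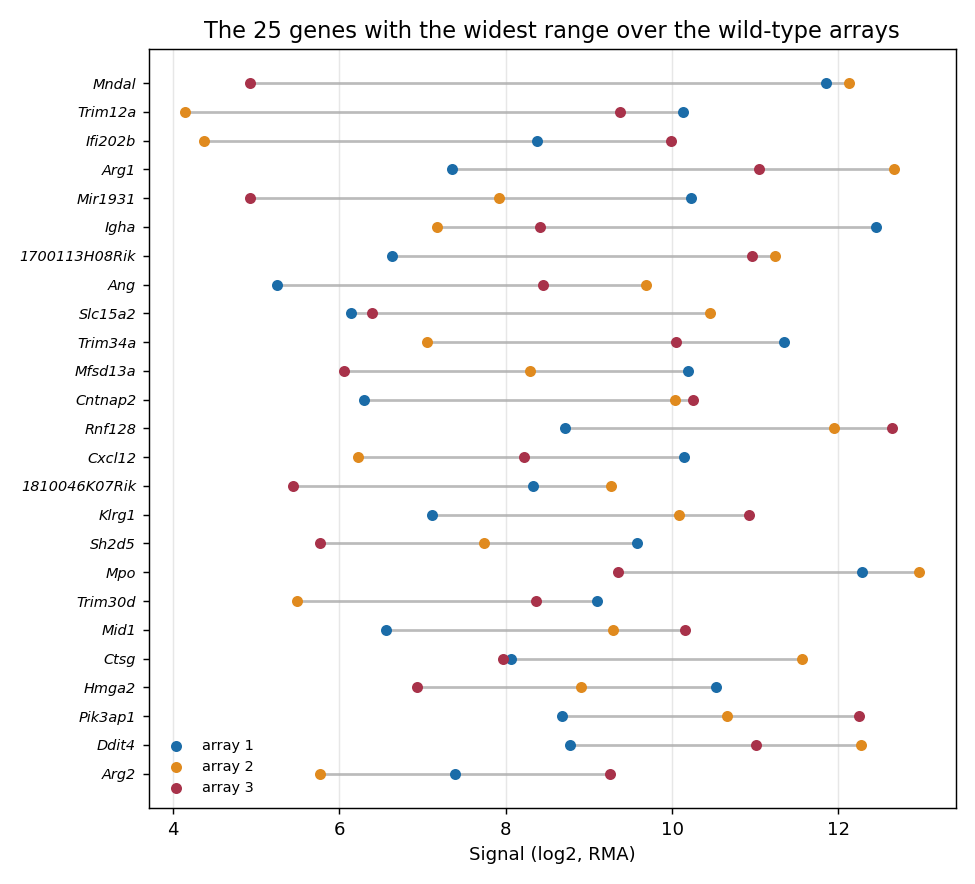
Log2 signal (horizontal axis) of the 25 genes with the widest range over the wild-type arrays among genes above the median gene, 1 row per gene, 1 point per array, with a grey line from the lowest to the highest. Mndal spans 7.20 log2 units and the last gene, Arg2, 3.48.

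Over the 5 Sca1-MALT1 arrays the 25 genes had a median range of 3.16, from 0.28 to 6.73, and 21 of 25 had a range over 1. Among all genes above the median gene the median range there was 0.76, and 32.2% had a range over 1, although a range over 5 arrays is wider than one over 3 by construction. The 4 exceptions were Igha, Rnf128, Hmga2 and Pik3ap1, with ranges of 0.28, 0.56, 0.78 and 0.82 there.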

How the data were processed

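Log2 values for 45101 probe sets on each array were deposited; the authors made them with RMA, which corrects background, normalizes arrays by quantiles and summarises probes, per the submitters' processing notes. Which software and version ran RMA, and on which arrays together, is not given in the sources used here. Since RMA makes no call of detection, low values were not read as absence. The values were used as deposited. Of the probe sets, 64 were controls, 34945 had 1 gene symbol in the platform annotation, 932 had several and 9160 were not listed there. Where a gene had several probe sets, the brightest by its mean across the 8 arrays was used. This gave 18193 genes, 18032 of them named through identifiers in a RefSeq table of GRCm38.p6. The 32 gene lists held 576 entries, 509 of them measured.

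Named genes were the 5 markers, the 25 with the highest mean, the 25 with the widest range among genes above the median gene, the 6 per array and direction farthest from the nearer other array in that class, and the 4 highest and 2 lowest members of each list. All members of the lineage antigen and Y chromosome lists were named too. Other genes are said to be named after their values were seen. The members and lists were chosen with earlier results of these data known. With 1 group, no test was made and no p-value is given. Counts of list members highest or lowest on an array, and the promoter motifs, were chosen once values had been seen. The counting steps were tested on simulated data. Python 3.11.15, pandas 2.3.3 and numpy 2.4.6 were used.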

Additional observations from a re-analysis of the deposited data

How the results depend on the processing

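Of 335 recomputed values, 44 moved by more than the spread between arrays or, for counts, by more than 1.5 times. Leaving out each array in turn gave 784 to 1367 genes with a range over 1. With the mean of all probe sets of a gene, array 1 was the higher one in 101 genes and the lower in 153, array 2 was the lower in 45, and the percentile of Kit was 71.5 and that of Procr 94.0. Among genes above the median gene only, array 1 was the higher in 87 genes, and array 2 was the higher in 43 and the lower in 42. Under this filter 8 of 11 endothelial genes were highest on array 2, beside 13 of 18 without it. For stromal genes highest on array 1 the counts were 4 of 6 and 13 of 17. This filter tests fewer genes, so its counts are lower by construction. For the other changes the cause was not tested. Of 192 recomputed list percentiles 32 moved, and 10 lists had none that moved. No single value turned its direction, but the order of some lists turned with the mean of all probe sets. The Hox list then stood at percentile 31.6 and the other-tissue list at 27.5, the opposite order. The T cell list rose from 69.8 to 78.6. It thereby passed the pro-B and pre-B list, which fell from 84.3 to 76.5, and the stem cell list, which went from 71.4 to 69.9. Not every pair of lists was compared. No paired analysis was possible because 1 group was described and no groups were compared. The number of arrays, 3, limits the precision of every spread.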

Other observations

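Eosinophil granule genes, which the text above leaves out, were high on array 2 alone. Prg2, the eosinophil major basic protein, read 4.77, 10.23 and 6.36 on arrays 1, 2 and 3. Epx, eosinophil peroxidase, read 4.85, 8.16 and 4.67, and Prg3, a second major basic protein, read 5.77, 7.57 and 6.03. Siglecf, a lectin of the eosinophil surface, was below the median gene on all arrays at 4.64, 5.57 and 5.29, as was Ccr3, the eotaxin receptor, at 3.89, 4.07 and 4.30. Hdc, the histamine-forming enzyme of basophils and mast cells, was instead highest on array 3, at 9.96, 9.61 and 11.15, with the basophil protease Mcpt8 at 6.96, 7.78 and 8.99. Prg2, Epx, Prg3 and Siglecf were named after their values were seen.

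Plasmacytoid dendritic cell genes held no common order. Siglech, a lectin of these cells, read 6.65, 6.47 and 6.77, below the median gene on all arrays, while their transcription factor Tcf4 read 11.30, 10.46 and 10.29. Xcr1, the chemokine receptor of cross-presenting dendritic cells, was near the bottom of the array at 4.20, 4.30 and 3.97.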
